A study of Mus musculus with 6 samples.

Results

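Genes of the interstitial extracellular matrix, of matricellular proteins and of matrix-modifying enzymes were compared between RNA co-precipitated with Staufen2 and input RNA of a podocyte line. The genes were taken from a list of 43 names, chosen by function and with earlier results of these data known. Of these, 41 had a probe set listed with their symbol alone, out of 19938 genes measured in this way. Fbn1 was not named in the platform's annotation, and Loxl2 was listed together with a second gene, so neither is reported. The cells were an immortalized mouse podocyte line, propagated at 33°C with gamma-interferon and differentiated at 37°C without it. One group was total input RNA (3 arrays), and the other was RNA recovered with an antibody against Staufen2 from precleared cytoplasmic lysate (3 arrays). Each array was labelled from 100 ng of RNA. The values therefore compare the make-up of both RNA pools and not their amount. A pulldown with a control antibody was not analysed here, so a higher value is a larger share of the recovered RNA and not binding to Staufen2 as such.

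Podocytes are epithelial cells of the kidney glomerulus that lay down and rest on a basement membrane. Interstitial matrix is built from fibrillar collagens, microfibrils, fibronectin and proteoglycans. Collagen chains are hydroxylated and folded in the endoplasmic reticulum, exported, trimmed outside the cell and then cross-linked by lysyl oxidases. Matricellular proteins such as thrombospondins, tenascin C and periostin bind this scaffold and cell receptors and act mainly as signals rather than as structure. Metalloproteinases cut matrix proteins, and the tissue inhibitors of metalloproteinases (TIMPs) block them. Staufen2 binds double-stranded stretches of RNA and is best known from mRNA transport in neurons, and secreted matrix proteins are translated on mRNAs held at the endoplasmic reticulum.

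Values are log2 expression values per probe set, and a difference is the pulldown mean minus the input mean on that scale. A gene was called higher or lower at a Benjamini-Hochberg adjusted p under 0.05 over all genes in limma's moderated test. Arrays of one group correlated at 0.998 to 0.999, and arrays of different groups at 0.982 to 0.983. The median level of all probe sets was 6.54, and signal below it can be background. Of the 12 measured podocyte markers, 8 lay above that level in the input, among them Wt1, Synpo, Nes and Cd2ap, whereas Nphs1, Podxl, Ptpro and Tcf21 lay below it. Of 8 mesangial and fibroblast markers, 5 lay above it in the input, including Acta2 (13.57) and Pdgfrb (11.45) but not Pdgfra, Itga8 and Des, as did 2 of 8 endothelial, 5 of 8 tubular and 3 of 8 immune markers. The mean level of the mesangial and fibroblast list was 8.28 to 8.34 on the input arrays and 8.41 to 8.49 on the pulldown arrays. That of the podocyte list was 8.51 to 8.56 and 8.75 to 8.78, and the part of either list in the results on matrix genes was not tested. Whether the replicates are separate cultures is not stated, and the spread behind each p-value may then be technical.

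Matrix genes went in both directions, and by small amounts. Of the 41 measured, 15 were higher in the pulldown (36.6%, against 31.3% of all genes tested), 8 were lower (19.5%, against 17.3%) and 18 were not called. Both shares lie close to those of all genes, but 38 of the 41 lay above the median level in at least 1 group. Of these 38, 39.5% were higher and 21.1% lower, against 45.9% and 26.8% of all genes above that level. A difference from either background was not tested, so these shares say nothing particular about matrix genes. The median difference of the 41 was 0.05, and that of all genes was 0.04. After cyclic loess scaling, 11 matrix genes were higher and 12 lower, and their median moved to -0.00068. Over all 19938 genes the same scaling gave 5127 higher and 4565 lower, against 6246 and 3459 before it. The 3 pulldown arrays lay above all 3 input arrays for 18 of the 41 (36.4% of all genes did so) and below them for 9 (19.6% of all genes). None of the 41 differed by 2-fold, a size passed with a call by 3.67% of all genes. A called difference of at least 0.3 was seen for 11 of them, against 30.2% of all genes. The extremes were Thbs2, which was 1.43-fold higher, and Dcn, which was 1.35-fold lower. Lama1, Lama4 and Lum lay below the median level of all probe sets in both groups and were not called, so little can be read from them.

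**Figure D1:**
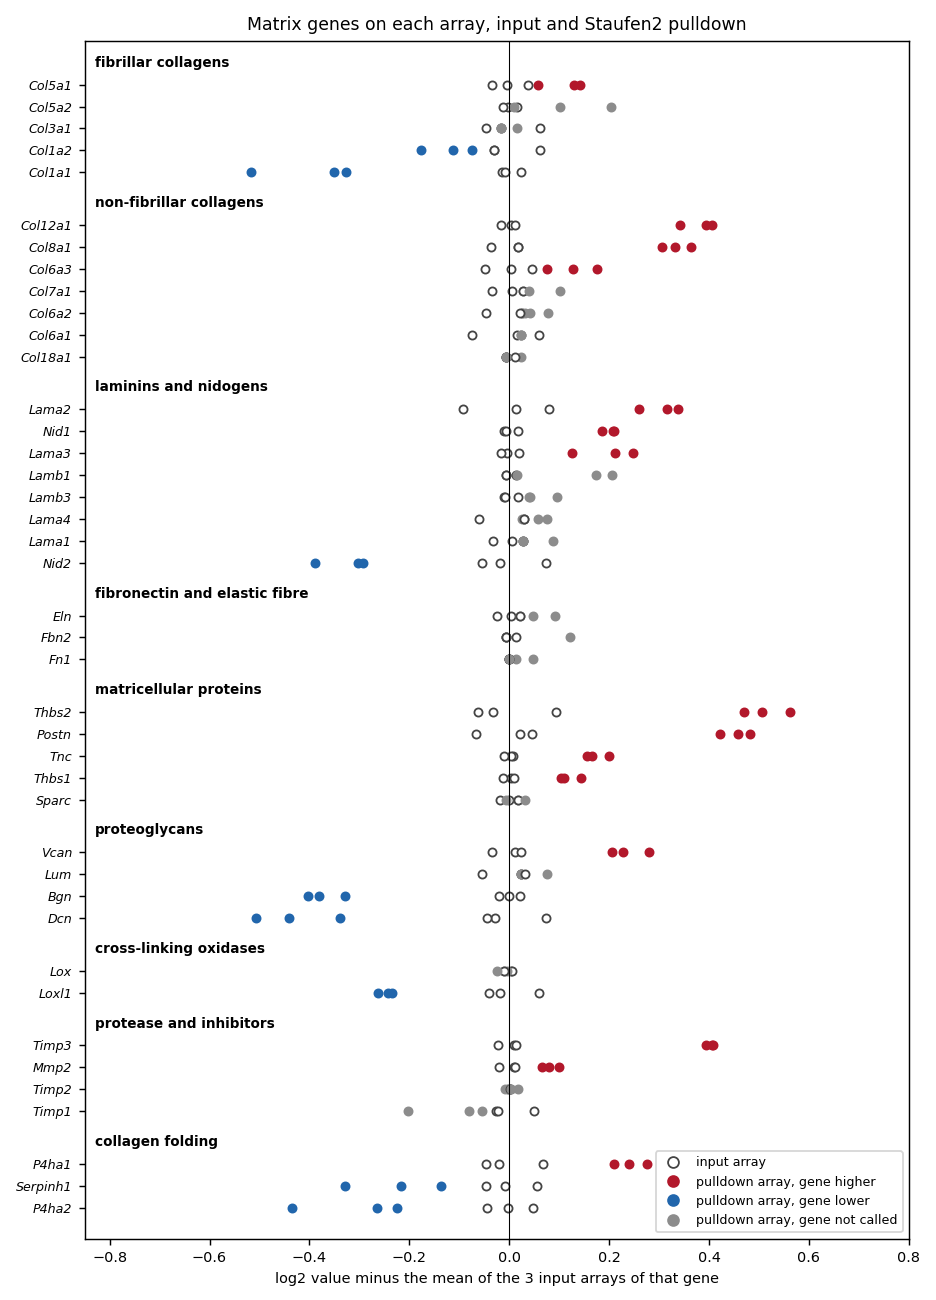
Each point is 1 array of 1 gene, plotted on the x axis as its log2 value minus the mean of the 3 input arrays of that gene, with genes on the y axis grouped by role. Open circles are input arrays and filled circles are pulldown arrays, coloured by the call, and all 3 pulldown arrays of Thbs2 and of Postn lie to the right of those of every other gene, while the leftmost points are single arrays of Col1a1 and Dcn.

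Among the 5 fibrillar collagen chains, which form the tensile fibrils of the matrix, Col1a1 and Col1a2 of type I collagen were lower and Col5a1 of type V was higher. All 5 lay above the median level, where 45.9% of all genes were higher and 26.8% lower. Col1a1 read 10.89, 10.90 and 10.93 in the input and 10.58, 10.39 and 10.56 in the pulldown. All pulldown arrays lay below all input arrays, with the second pulldown array lowest. Its difference was -0.40 ± 0.052 (SE, n = 3 per group, limma adjusted p = 0.00037), or 1.32-fold lower. Col1a2 had a smaller difference, -0.12 ± 0.040 (limma adjusted p = 0.040). That call was lost without input array 1 (-0.14), 2 (-0.09) or 3 (-0.14) and without pulldown array 1 (-0.09) or 3 (-0.13). Col5a1, the chain that sets the width of type I fibrils together with its partner, differed by 0.11 ± 0.035 (limma adjusted p = 0.036), whereas cyclic loess scaling gave -0.0012 (adjusted p = 0.98) and centring on the brightest probe sets 0.07 (adjusted p = 0.16). Without input array 1 (0.11) or 3 (0.09), or without pulldown array 1 (0.09) or 3 (0.10), Col5a1 was not called either. Its partner Col5a2 was not called at 0.11 ± 0.049 (limma adjusted p = 0.12), with the second pulldown array (10.87) inside the input range of 10.85 to 10.88. Leaving that array out gave 0.15 (adjusted p = 0.021). Col3a1, which mixes with type I collagen in pliable tissues, had means of 7.88 (input) and 7.87 (pulldown). The 95% interval of its difference was -0.09 to 0.08.

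Of the 7 other collagen chains, Col8a1, Col12a1 and Col6a3 were higher and none was lower. All 7 lay above the median level in at least 1 group, where 45.9% of all genes were higher and 26.8% lower. A difference from those shares was not tested. Col12a1, a collagen that sits on the surface of type I fibrils, read 11.65, 11.65 and 11.63 in the input and 12.04, 11.98 and 12.05 in the pulldown. The difference was 0.38 ± 0.029 (SE, limma adjusted p = 1.9e-05), or 1.30-fold. Col8a1, a short-chain collagen of vessel walls and glomeruli, read 12.79, 12.79 and 12.74 against 13.08, 13.10 and 13.14. Here too every pulldown array was above every input array, by 0.33 ± 0.031 on average (limma adjusted p = 5.0e-05). Type VI collagen makes beaded microfilaments from chains that assemble together. Its chains Col6a1 and Col6a2 were not called, with 95% intervals of -0.07 to 0.11 and -0.03 to 0.13. Col6a3 was called at 0.13 ± 0.039 (limma adjusted p = 0.029), from an input level of 6.50 that is below the median of all probe sets. After cyclic loess Col6a3 stood at 0.08 and was not called (adjusted p = 0.12), nor was it without input array 1 (0.10) or 3 (0.13) or pulldown array 1 (0.13) or 3 (0.10). Col7a1, of anchoring fibrils, and Col18a1, the source of endostatin, were not called, at 0.06 ± 0.033 and 0.0036 ± 0.026. For Col18a1 the sign turned under cyclic loess, to -0.11 (adjusted p = 0.013).

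Laminins are the sheet-forming glycoproteins of basement membranes, and nidogens link them to type IV collagen. Lama2, Lama3 and Nid1 were higher, Nid2 was lower, and 4 members were not called. Above the median level, where 6 of these 8 genes lay, 45.9% of all genes were higher and 26.8% lower. Lama2, the alpha chain of muscle and nerve laminin, read 9.19, 9.09 and 9.26 in the input and 9.50, 9.44 and 9.52 in the pulldown. It was 0.30 ± 0.048 higher (SE, limma adjusted p = 0.0011), and its groups did not overlap. Lama3, of the laminin that anchors skin epithelium, was higher by 0.20 ± 0.037 (limma adjusted p = 0.0032). Its input level of 6.71 was not far above the median of all probe sets. Nid1 differed by 0.20 ± 0.026 (limma adjusted p = 0.00038). Its relative Nid2 read 9.24, 9.33 and 9.21 in the input and 8.96, 8.87 and 8.97 in the pulldown. The pulldown arrays were all below the input arrays, at a difference of -0.33 ± 0.044 (limma adjusted p = 0.00044). Lamb1, a beta chain used in many laminins, had pulldown values of 11.57, 11.41 and 11.60 against 11.41, 11.39 and 11.39. It was not called at 0.13 ± 0.050 (limma adjusted p = 0.068), and was called without the second pulldown array (0.19, adjusted p = 0.0022). Lamb3 also missed the test, at 0.06 ± 0.029. The second pulldown array gave the lowest pulldown value in 19 of the 41 matrix genes, against 8 for each of the other 2, with ties in 6. The share over all genes is not given here, so this count says nothing particular about matrix genes.

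Fibronectin and the elastic fibre genes were not called. Fn1, whose fibrils guide the assembly of other matrix, read 13.48 on each input array and 13.50, 13.53 and 13.48 in the pulldown. Its difference was 0.02 ± 0.027, with a 95% interval of -0.04 to 0.08. The elastin gene Eln was at 0.05 ± 0.031 and the microfibril gene Fbn2 at 0.04 ± 0.041. For Eln and Fbn2 the 95% intervals were -0.02 to 0.13 and -0.06 to 0.13. Their input levels of 6.92 and 6.68 were not far above the median of all probe sets.

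Of the 5 matricellular genes 4 were higher and none lower, with a median of 0.17. All 5 lay above the median level, where 45.9% of all genes were higher and 26.8% lower, and so few genes show nothing particular to the role. Thbs2, a thrombospondin known to restrain angiogenesis, read 6.92, 6.79 and 6.76 in the input and 7.38, 7.33 and 7.29 in the pulldown. This was a difference of 0.51 ± 0.048 (SE, limma adjusted p = 5.5e-05), and the input level of 6.82 was not far above the median of all probe sets. Postn encodes periostin, a collagen-binding protein raised in injured tissue. Its values were 9.11, 9.20 and 9.22 in the input and 9.60, 9.66 and 9.63 in the pulldown, a difference of 0.45 ± 0.038 (limma adjusted p = 2.9e-05). For both genes the groups were separated by more than the whole range within either group. Tnc, the adhesion-modulating tenascin C, was higher by 0.17 ± 0.027 (limma adjusted p = 0.0010), and by 0.09 after cyclic loess, still called (adjusted p = 0.032). Thbs1, an activator of latent TGF-beta, was higher by 0.12 ± 0.027 (limma adjusted p = 0.0073), but was not called after cyclic loess (0.05, adjusted p = 0.20) or after centring on the brightest probe sets (0.08, adjusted p = 0.062). Sparc, a collagen-binding glycoprotein, did not pass, at 0.01 ± 0.027.

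Among the 4 proteoglycan genes, 2 were lower and 1 was higher. Above the median level, where 3 of the 4 lay, 26.8% of all genes were lower and 45.9% higher. The small leucine-rich proteoglycans decorin and biglycan, which coat collagen fibrils, were lower, and the large hyaluronan-binding versican was higher. Dcn read 10.87, 10.85 and 10.97 in the input and 10.46, 10.56 and 10.39 in the pulldown, a difference of -0.43 ± 0.052 (SE, limma adjusted p = 0.00025). Bgn read 12.74, 12.70 and 12.72 against 12.34, 12.39 and 12.32, a difference of -0.37 ± 0.031 (limma adjusted p = 3.0e-05). In both, all pulldown arrays were below all input arrays. Vcan had means of 12.49 ± 0.031 (input) and 12.73 ± 0.037 (pulldown; SD, n = 3), and its difference was 0.24 ± 0.032 (SE, limma adjusted p = 0.00048). The lumican gene Lum had mean levels of 4.44 (input) and 4.48 (pulldown), near the bottom of the array's range.

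Lysyl oxidases oxidize lysines of collagen and elastin to start cross-linking. Lox was not called, at -0.01 ± 0.025, but cyclic loess gave -0.10 (adjusted p = 0.018). Loxl1, which acts mainly on elastic fibres, read 11.13, 11.16 and 11.23 in the input and 10.93, 10.91 and 10.94 in the pulldown. It was lower by the fit, at -0.25 ± 0.034 (SE, limma adjusted p = 0.00052), with no overlap between groups.

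Among the gelatinase gene Mmp2 and its inhibitors, Timp3 had the clearest difference. Timp3, the TIMP that stays bound to the matrix, read 12.41, 12.45 and 12.45 in the input and 12.83, 12.84 and 12.85 in the pulldown. The pulldown arrays were tightly grouped above the input, by 0.40 ± 0.026 (SE, limma adjusted p = 7.8e-06), or 1.32-fold. Timp2, which takes part in activating the Mmp2 proenzyme, was not called at 0.0039 ± 0.025, and turned to -0.09 (adjusted p = 0.030) after cyclic loess. Timp1, the soluble and inducible TIMP, was at -0.11 ± 0.046 (limma adjusted p = 0.081). It was called lower after cyclic loess (-0.21, adjusted p = 0.0058) and after centring on the brightest probe sets (-0.15, adjusted p = 0.022). Mmp2 passed narrowly, at 0.08 ± 0.027 (limma adjusted p = 0.039), but was at -0.00068 under cyclic loess (adjusted p = 0.99) and at 0.04 under centring on the brightest probe sets (adjusted p = 0.27). That call was also lost without input array 1 (0.09) or 2 (0.07) and without pulldown array 1 (0.07) or 3 (0.08).

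All 3 genes of collagen folding in the endoplasmic reticulum were called, P4ha1 higher and P4ha2 and Serpinh1 lower. They lay above the median level, where 72.6% of all genes were called, so this count shows nothing particular to the role. P4ha1 and P4ha2 are alternative catalytic subunits of prolyl 4-hydroxylase, which stabilizes the collagen helix. P4ha1 was higher by 0.24 ± 0.038 (SE, limma adjusted p = 0.0012). P4ha2 read 9.67, 9.58 and 9.62 in the input and 9.35, 9.19 and 9.40 in the pulldown, all pulldown arrays being lower. The difference was -0.31 ± 0.058 (limma adjusted p = 0.0028). Serpinh1, the collagen-specific chaperone of the endoplasmic reticulum, differed by -0.23 ± 0.053 (limma adjusted p = 0.0087).

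For 13 pairs of relatives the gap between both genes on the same array was compared between groups, so that a shift of a whole array cancels. The pairs were chosen after the values were seen, so these differences of differences are a description and carry no test. Nid2 differed from Nid1 by -0.53 ± 0.049 (SE, 95% interval -0.65 to -0.41), and P4ha2 from P4ha1 by -0.55 ± 0.050 (-0.67 to -0.43). In both pairs one gene was called higher and the other lower. Timp3 lay above Timp2 by 0.40 ± 0.037 and above Timp1 by 0.52 ± 0.052. Between the thrombospondins the gap was 0.39 ± 0.054 in favour of Thbs2, and Loxl1 lay below Lox, at -0.23 ± 0.045. The chains of type I collagen are built into the same molecule, and Col1a1 was at -0.28 ± 0.078 relative to Col1a2 (-0.46 to -0.09). Without input array 1 (-0.27) or 3 (-0.25), the limma adjusted p of this type I gap was above 0.05.

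The intervals of the other 6 pairs included 0. Col5a2 against Col5a1 had a 95% interval of -0.12 to 0.11, and Dcn against Bgn one of -0.17 to 0.06. The type VI pairs ran from -0.11 to 0.16 for Col6a2 against Col6a1, from -0.04 to 0.24 for Col6a3 against Col6a1 and from -0.01 to 0.16 for Col6a3 against Col6a2. Timp2 against Timp1 lay at 0.12 ± 0.050, with a lower bound of -0.00048.

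**Figure D2:**
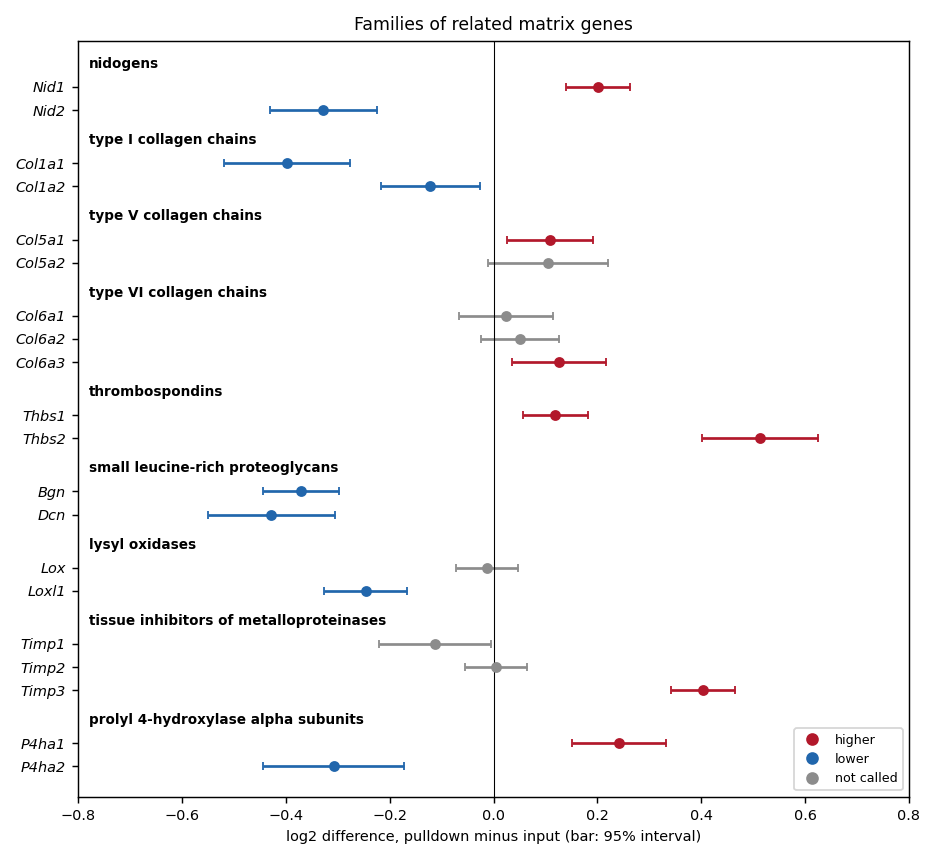
Points give the log2 difference of each gene, pulldown minus input, on the x axis, with the 95% interval of the limma fit as the bar and genes grouped by family on the y axis. Red marks genes higher in the pulldown, blue lower and grey not called, and the nidogens and the prolyl 4-hydroxylase subunits each have 1 gene on either side of 0.

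Higher matrix genes tended to have a longer genomic span, introns included, by the RefSeq gene table, as did higher genes in general. The 15 higher genes had a median span of 77.1 kb (15.3 to 636 kb), the 8 lower genes 28.1 kb (7.87 to 60.5 kb) and the 18 others 47.1 kb. Spearman's rank correlation between difference and span was 0.47 across the 41 genes, and 0.46, 0.40 and 0.51 for the single pulldown arrays set against the input mean. Across 18556 coding genes it was 0.36, and 0.31 after cyclic loess. Above the median level it was 0.50 for 38 matrix genes and 0.48 for 11764 coding genes. All points share the same 6 arrays, and these values are descriptions without a test. Of the 10 matrix genes with spans of 100 to 1000 kb, 5 were higher and none lower, and of the 8 under 20 kb, 1 was higher (Thbs1) and 3 were lower (Col1a1, Bgn and Serpinh1). Among all coding genes the same classes held 1229 higher and 130 lower of 2213, and 1763 higher and 2278 lower of 9469. Both genes with the highest differences, Thbs2 (28.8 kb) and Postn (31.8 kb), are shorter than the median matrix gene (49.1 kb). Their spans are close to that of P4ha2 (30.7 kb), which was lower. Within families, Timp3 (49.1 kb) and Timp2 (54.4 kb) have like spans and different values. Loxl1 (25.5 kb) is longer than Lox (13.8 kb) and had the lower difference. In the other pairs whose interval excluded 0, the longer gene had the higher difference. These were Nid1 (74.7 kb) against Nid2 (60.5 kb), P4ha1 (50.1 kb) against P4ha2 and Col1a2 (35.9 kb) against Col1a1 (16.8 kb). The same held for Thbs2 against Thbs1 (15.3 kb) and Timp3 against Timp1 (4.57 kb). The part of span in these differences was not tested.

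**Figure D3:**
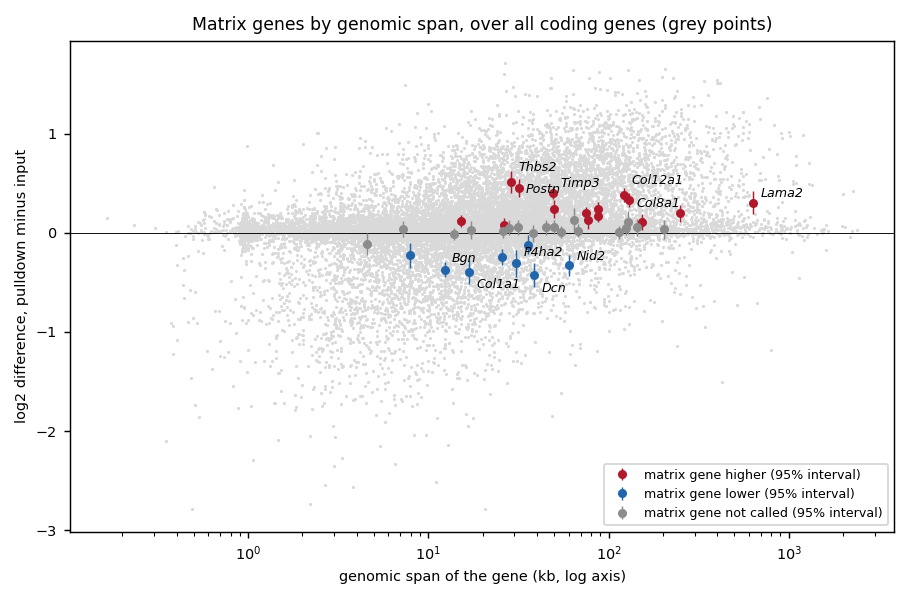
The x axis is the genomic span in kb on a log scale and the y axis the log2 difference, pulldown minus input. Grey points are all 18556 coding genes and coloured points the 41 matrix genes with 95% intervals, the lower ones (blue) all lying at spans up to 60.5 kb.

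Other genes of matrix assembly were taken from a list of 122, of which 116 were measured. Of these, 37 were higher, 16 lower and 63 not called, with a median of 0.06. The shares, 31.9% higher and 13.8% lower, were near those of all genes (31.3% and 17.3%). Cyclic loess gave 26 higher and 26 lower of the 116, and 5127 higher and 4565 lower of all 19938 genes. Of the 116, 85 lay above the median level in at least 1 group, where more of all genes were called (45.9% higher, 26.8% lower). In procollagen export 7 of 10 genes were higher and 3 lower, with a median of 0.26. All 10 lay above the median level, where 45.9% of all genes were higher and 26.8% lower, and a difference from those shares was not tested. Mia3, the receptor TANGO1 that loads bulky procollagen into transport carriers, was higher by 0.65 ± 0.043 (SE, limma adjusted p = 8.2e-06), and its partner gene Mia2 by 1.01 ± 0.053 (adjusted p = 2.6e-06). Sar1b, a small GTPase that starts the coat of these carriers, was 2.08-fold lower, at -1.06 ± 0.047 (adjusted p = 1.3e-06). Its paralog Sar1a, named after its value was seen, was higher by 0.58 ± 0.034.

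Genes that process collagen or cut matrix also went both ways. Over all genes 31.3% were higher and 17.3% lower, and above the median level 45.9% and 26.8%. The counts by class below were not tested against these shares and show nothing particular to a class. Tll1, a procollagen proteinase, was higher by 0.73 ± 0.030 (SE), while Pcolce, the enhancer of such proteinases, was lower, at -0.79 ± 0.027. Adamts5 and Adamts12 were higher by 0.69 ± 0.029 and 0.68 ± 0.042, and Adamts1, like Adamts5 a protease of versican, was lower, at -0.67 ± 0.049. Of the 21 measured proteases and inhibitors 7 were higher and 4 lower. In collagen modification, 6 of 16 were higher and 4 lower, and the lower ones included the prolyl isomerase gene Ppib (-0.48 ± 0.026). Of 17 other matricellular genes 5 were higher and 3 lower, with Ccn4 at 0.64 ± 0.032, Ccn5 at -0.52 ± 0.058 and Smoc2 at -0.58 ± 0.061. For these 9 genes the limma adjusted p lay between 4.7e-07 (Pcolce) and 0.00015 (Ccn5). Of 17 other collagens, 4 of them below the median level in both groups, 1 was higher, Col11a1 (0.53 ± 0.031, named after its value was seen), and none lower. The remaining classes had 2 higher and 1 lower of 8 (procollagen processing), 3 and 0 of 4 (cross-linking enzymes), 3 and 1 of 13 (elastic fibre and fibulins) and 3 and 0 of 10 (other proteoglycans and hyaluronan).

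**Figure D4:**
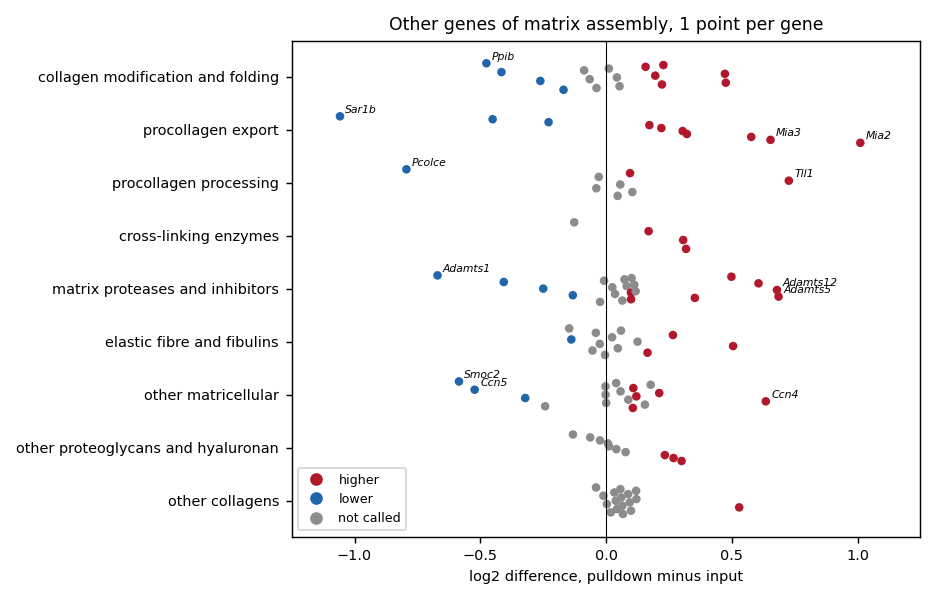
Each point is 1 gene of matrix assembly outside the 41, with its log2 difference, pulldown minus input, on the x axis and its class on the y axis, spread within a class for legibility. Red is higher, blue lower and grey not called, and Mia2 at 1.01 and Sar1b at -1.06 mark both ends, in the same class.

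The 11 basement membrane genes measured (type IV collagen chains, laminin chains of the glomerulus, agrin and perlecan) had a median of 0.16, with 6 higher and 1 lower, but 3 higher and 4 lower after cyclic loess. All 11 lay above the median level, where the shares over all genes were 45.9% and 26.8%. Cyclic loess also moved the counts over all genes, from 6246 higher and 3459 lower to 5127 and 4565. Lamc1, the gamma chain shared by most laminins, was higher by 0.33 ± 0.034 (SE, limma adjusted p = 0.00011), and Col4a3, of the mature glomerular collagen network, by 0.32 ± 0.052 (adjusted p = 0.0012). The lower gene was Hspg2, perlecan, at -0.11 ± 0.031 (adjusted p = 0.025), and was not called without input array 3 (-0.09) or without pulldown array 2 (-0.09) or 3 (-0.11). Without input array 2, 2 of the 11 were lower. A difference between these genes and the 41 matrix genes was not tested.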

How the data were processed

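The authors deposited log2 expression values for each probe set of a whole-transcript array. RMA and limma are named, per the submitters' processing notes, with versions not given in the sources used here. Of 35556 probe sets, 21789 had 1 gene symbol in the platform's annotation, 1621 several and 12146 none listed. The brightest single-symbol probe set stood for a gene, and each of the 41 matrix genes had 1. RMA values depend on quantile scaling, so a difference is relative to the rest of the RNA. In the deposited table, 13 of the 41 probe sets (31.7%) and 26.1% of all had exactly equal values on 2 or more arrays.

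Pulldown and input (3 arrays each) were compared over 19938 genes by limma 3.58.1 (R 4.3.3) in a 2-sided test with no covariate, and SEs and 95% intervals are moderated. An exact permutation test of 3 against 3 cannot give a p below 0.10. For pairs, the within-array gap divided by the square root of 2 was fitted as a further row. On simulated data with 200 of 19938 genes moved, 81.5% were called at a log2 difference of 0.25 and all at 0.5 and 1, with 7 false calls. The simulation moved far fewer genes than the 48.7% called in the data and held no scaling step. Its rates therefore need not hold for the real comparison. Same-numbered input and pulldown arrays had correlated deviations of 0.02, 0.11 and -0.06, so numbers were not taken as pairs. Span came from RefSeq (GRCm38.p6), matched for 19856 genes and for all 41. It replaced protein length, which was not used here. Coordinates are left out because the platform annotation gives no build. Figures used matplotlib 3.10.9.

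Members and lists were chosen with earlier results of these data known. Per-array values are given for called matrix genes with a difference of at least 0.3 and for the largest called difference of each role, and from the assembly list the 6 largest called differences above the median level are named in each direction. Outside this rule, per-array values are also given for Lamb1 and Fn1, and a single array value for Col5a2, none of them called. Alternatives were a replicate block, cyclic loess, centring on probe sets above the 75th percentile, a level filter, an intensity trend, averaging the probe sets of a gene, and leaving out each array. The number of arrays limits the precision.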

Additional observations from a re-analysis of the deposited data

How the results depend on the processing

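Of the 15 higher matrix genes 11 kept their direction and call under all 12 alternatives, as did 7 of the 8 lower ones, and 12 of the 18 uncalled genes were never called. The exceptions were Col1a2, Col5a1, Col6a3, Thbs1 and Mmp2 among the called and Col5a2, Col18a1, Lamb1, Lox, Timp1 and Timp2 among the others. Averaging the probe sets of a gene could not change a matrix value, since each of the 41 had 1 probe set. The replicate block, level filter and intensity trend leave each difference as it is, so they could alter a call but not a direction. Cyclic loess turned Col5a1 to -0.0012, Mmp2 to -0.00068, Col18a1 to -0.11 and Timp2 to -0.087, and the cause was not tested. It took the median of the matrix genes to -0.00068, the lower assembly genes to 26 and the basement membrane genes to 3 higher and 4 lower. Centring on the brightest probe sets gave a median of 0.012 and 2 lower basement membrane genes. Testing only genes above the median level, and so fewer genes, also gave 2 lower basement membrane genes. Cyclic loess moved the median of all genes by -0.057 and centring by -0.041. Over all genes the split was 6246 higher and 3459 lower, and 5127 and 4565 after cyclic loess. Leaving out each array in turn gave 12 to 17 higher and 7 to 8 lower matrix genes, medians of 0.037 to 0.064, 31 to 38 higher and 16 to 18 lower assembly genes, and 5 to 6 higher and 0 to 2 lower basement membrane genes. With the replicate block, 12 matrix genes were higher and 8 lower: Col5a1 (adjusted p = 0.074), Col6a3 (0.051) and Mmp2 (0.077) lost their call. Under the intensity trend, Col1a2 (limma adjusted p = 0.061) and Col5a1 (0.054) lost theirs. Protein length was not run. For probe sets near or below the median level (6.54) signal over background limits what can be seen.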

Other observations

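Differences of the brightest matrix genes were small, as were those of other genes at that level. The 4 matrix genes with a mean level above 13 (Fn1, Sparc, Thbs1 and Mmp2) differed by 0.01 to 0.12, and the quartiles of the 55 genes in that range were -0.03 and 0.18. Between 12 and 13 the 10 matrix genes ran from -0.37 to 0.40, with quartiles of -0.16 and 0.31 for all 547 genes. Between 9 and 11 the 9 matrix genes ran from -0.43 to 0.45, and the quartiles of 4933 genes were -0.22 and 0.50. The matrix values are full ranges and those of all genes are quartiles, so their spreads cannot be compared.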
